A study of Arabidopsis thaliana with 21 samples.

Results

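The 6 arrays described here compare older plate-grown roots with and without sucrose added to the medium, and were chosen by sample title from the 21 arrays of the series, 3 in each group. Total RNA from roots of Arabidopsis thaliana Col-0, the common laboratory accession, was labelled and hybridised to ATH1 arrays from Affymetrix, on which each probe set gives 1 signal per sample. Group ATGE_99 grew on 0.5x GM, a plate medium, with 5% sucrose, and group ATGE_98 on 0.5x GM with no sucrose listed, both in continuous light at 20 °C. The other sucrose pair, ATGE_95 with 5% sucrose and ATGE_94 without, had the same light, temperature and medium, and the labels liken most of its plants to 7-day-old plants. No age is given in the labels for ATGE_99 and ATGE_98, which are known as the later harvest of this developmental series. The labels do not state how much sucrose GM itself contained, and no group received another sugar or osmolyte, so sugar and osmotic strength cannot be told apart. Nothing in the labels tells whether the 3 replicates came from separate cultures. The p-values therefore measure only the spread between replicate arrays, pooled over all 21 arrays of the series, and that spread may be technical.

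Sugar in the medium changes what a root has to make for itself. Sucrose serves the root both as carbon and as a signal: the kinase SnRK1 switches on genes of amino acid breakdown and other salvage routes when sugar runs short, and sucrose in the medium is known to strengthen the response of Arabidopsis roots to phosphate shortage. Transporters of the SWEET family let sugars pass membranes along their gradient, and tonoplast transporters store them in the vacuole. The comparison asks which transcripts differed with the added sucrose.

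Median signals lay between 44.8 and 45.2 on the ATGE_99 arrays and between 43.4 and 44.7 on the ATGE_98 arrays, and arrays correlated across probe sets with r of 0.982 to 0.987 within the groups and 0.952 to 0.958 between them. The 3'/5' signal ratio of the actin control, a sign of RNA integrity, was 1.58 ± 0.106 in ATGE_99 and 2.07 ± 0.185 in ATGE_98 (SD, n = 3), with no overlap, and that of GAPDH was 1.06 ± 0.0132 in ATGE_99 and 1.13 ± 0.0404 in ATGE_98. These ratios moved with the sucrose contrast, and their part in the results below was not tested. Signals below the 40th percentile of their array (27.2 to 28.0 in ATGE_99, 25.5 to 26.8 in ATGE_98) are called dim. Shoot genes were checked because roots in light can green and leaf pieces can be harvested with them. Of 54 photosynthesis genes, 10 had a named probe set. Their summed signal was 1044 to 1066 in ATGE_99 and 1153 to 1299 in ATGE_98, and none was dim on all 3 arrays of either group. Among them the antenna protein gene LHCB4.1 had signals of 238, 205 and 195 in ATGE_99 roots, against 281, 296 and 285 in ATGE_98 roots, and the ATP synthase subunit gene ATPC1 of 137, 167 and 176 in ATGE_99 roots, against 241, 215 and 255 in ATGE_98 roots. Both fell, with log2 differences of -0.44 ± 0.10 and -0.57 ± 0.13 (adjusted p = 0.0019 and adjusted p = 0.0026). The other 8 did not pass the test, rubisco activase RCA among them at -0.23 ± 0.10. The median of the 10 was -0.08 and the highest value 0.44. The part of leaf or green tissue in the results was not tested, and in whole roots fewer cells of a type and less RNA per cell cannot be told apart. Of 23 root markers, 5 had a named probe set, with sums of 3275 to 3329 in ATGE_99 and 3322 to 3586 in ATGE_98, and 2 of the 5 were dim in both groups. PYK10, an abundant beta-glucosidase of root endoplasmic reticulum bodies, had signals of 3107, 3058 and 3115 in ATGE_99 roots, against 3242, 3466 and 3178 in ATGE_98 roots, so it was bright in both groups (adjusted p = 0.48). PYK10 made up most of each sum, so the sums tell little about the other markers. Of the 4 tested markers, 1 rose and none fell, with a median log2 difference of 0.20 and a highest value of 0.80.

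A change was called with limma's moderated test on log2 signal, fitted over all 21 arrays, at a Benjamini-Hochberg adjusted p of 0.05, and a value after ± beside a log2 difference is its standard error. Of 15284 probe sets tested, 1939 were higher in ATGE_99 than in ATGE_98 and 1816 were lower, which is 12.7% and 11.9%, or 24.6% in either direction. Most changes were small. The median of the log2 differences was 0.48 among the higher and -0.43 among the lower probe sets, and 290 rose and 149 fell by at least 2-fold as fitted. Of the called probe sets, 256 were dim on all arrays of 1 group and 96 on all arrays of both. The arrays of the groups did not overlap in 41.6% of all tested probe sets (21.1% higher and 20.5% lower). Separate arrays, given for many genes below, are therefore common and are described without weight as evidence. Centring each array on its median signal moved the split to 1577 higher and 2163 lower. Among the 8251 genes with a probe set of their own, the share called was 22.3% (11.2% higher and 11.0% lower), and gene lists are read against these shares and against the median log2 difference of all probe sets, 0.01. Where all 3 arrays of a group were dim, a fold is given as a lower bound, and the fitted log2 difference is no bound.

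Genes known from phosphate shortage held 3 of the 4 largest fitted rises among probe sets with 1 named gene. Loci without a symbol in the annotation are placed in gene groups by locus, from general knowledge, and a role is given only where the annotation's synonyms name the product. OCT1, an organic cation transporter, had signals of 419, 305 and 441 in ATGE_99 roots, against 32.5, 22.2 and 21.7 in ATGE_98 roots. AT5G20790 had 471, 491 and 571 in ATGE_99 roots, against 27.3, 32.9 and 35.3 in ATGE_98 roots. AT5G04120 had 166, 188 and 161 in ATGE_99 roots, against 15, 12.1 and 17.4 in ATGE_98 roots. All 3 genes were in or near the dim range on every ATGE_98 array and far above it with sucrose. OCT1 rose 15.3-fold as measured (log2 3.94 ± 0.36, adjusted p = 1.3e-08), or 13.8-fold with the 2 dim arrays of ATGE_98 set at the dim limit. AT5G20790 rose 16.1-fold (4.01 ± 0.28, adjusted p = 1.5e-10) and AT5G04120, dim without sucrose, at least 6.59-fold (adjusted p = 3.4e-16). BGLU25, a beta-glucosidase, lay at 414, 419 and 430.5 in ATGE_99 roots, against 206, 212 and 206 in ATGE_98 roots, a rise of 2.02-fold (adjusted p = 3.4e-09). LPR1 and LPR2, multicopper oxidases that arrest root growth under low phosphate, did not pass, at 0.03 ± 0.12 and 0.02 ± 0.09 (adjusted p = 0.90 for both). The phosphate list held 58 genes but only 6 had a named probe set. Of these 6, 4 rose and none fell, with a median log2 difference of 2.28, or 1.87 with the dim gene at its bound. A list of purple acid phosphatases, added after the values were seen, had 2 tested genes, of which 1 rose (1.43) and 1 fell (-0.50).

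Sulfur-linked genes included the largest fitted rise of all tested probe sets. BGLU28, a beta-glucosidase induced by sulfur deficiency and held to break down glucosinolates, had signals of 279, 290.3 and 258 in ATGE_99 roots, against 6.98, 1.13 and 9.53 in ATGE_98 roots. It was dim on every ATGE_98 array and bright on every ATGE_99 array, at least 10.6-fold higher (adjusted p = 4.7e-08). It was dim in every other group of the series too, so it entered the test only through its ATGE_99 arrays. AT1G04770 had 355, 354 and 395 in ATGE_99 roots, against 160.2, 160.5 and 169 in ATGE_98 roots, a 2.25-fold rise (log2 1.17 ± 0.08, adjusted p = 5.7e-11). APS3, an ATP sulfurylase, the entry enzyme of sulfate assimilation, had 69.3, 77.8 and 75.2 in ATGE_99 roots, against 56.8, 40.6 and 52.2 in ATGE_98 roots, and it rose by 0.58 ± 0.13 (adjusted p = 0.0023). Its paralog APS4 had 313, 325 and 321 in ATGE_99 roots, against 327, 381 and 389 in ATGE_98 roots, a difference of -0.19 ± 0.07 that missed the threshold (adjusted p = 0.056). APS4 passed as lower with quantile normalization (adjusted p = 0.0451), with median centring (adjusted p = 0.0441), with the 60th percentile filter (adjusted p = 0.047) and without the first ATGE_98 replicate (-0.27, adjusted p = 0.0098). The sulfite reductase SIR was at 0.16 ± 0.08 (adjusted p = 0.15), and passed as higher without the second ATGE_99 replicate (0.24, adjusted p = 0.0393). Of the 5 tested genes among 38 listed for sulfur deficiency, 3 rose and, as fitted with all arrays, none fell, with a median of 0.58.

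Glucosinolates are sulfur-rich defence compounds of the cabbage family, and 4 of the 6 tested genes of their synthesis and transport rose, with a median of 0.40. BCAT4, which starts the methionine-derived branch, had signals of 271, 289 and 290.4 in ATGE_99 roots, against 147, 164 and 153 in ATGE_98 roots and rose 1.83-fold (adjusted p = 5.2e-09). GSTU20, a glutathione transferase of the same branch, had 92.5, 93.7 and 95 in ATGE_99 roots, against 49.3, 57.2 and 60.1 in ATGE_98 roots and rose 1.69-fold (adjusted p = 0.00011). In both, every array with sucrose lay above every array without. The glucosinolate importer GTR1 rose by 0.50 ± 0.09 (adjusted p = 0.00033). AT2G31790 rose by 0.31 ± 0.09 (adjusted p = 0.01), a call lost without the second ATGE_98 replicate.

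**Figure D1:**
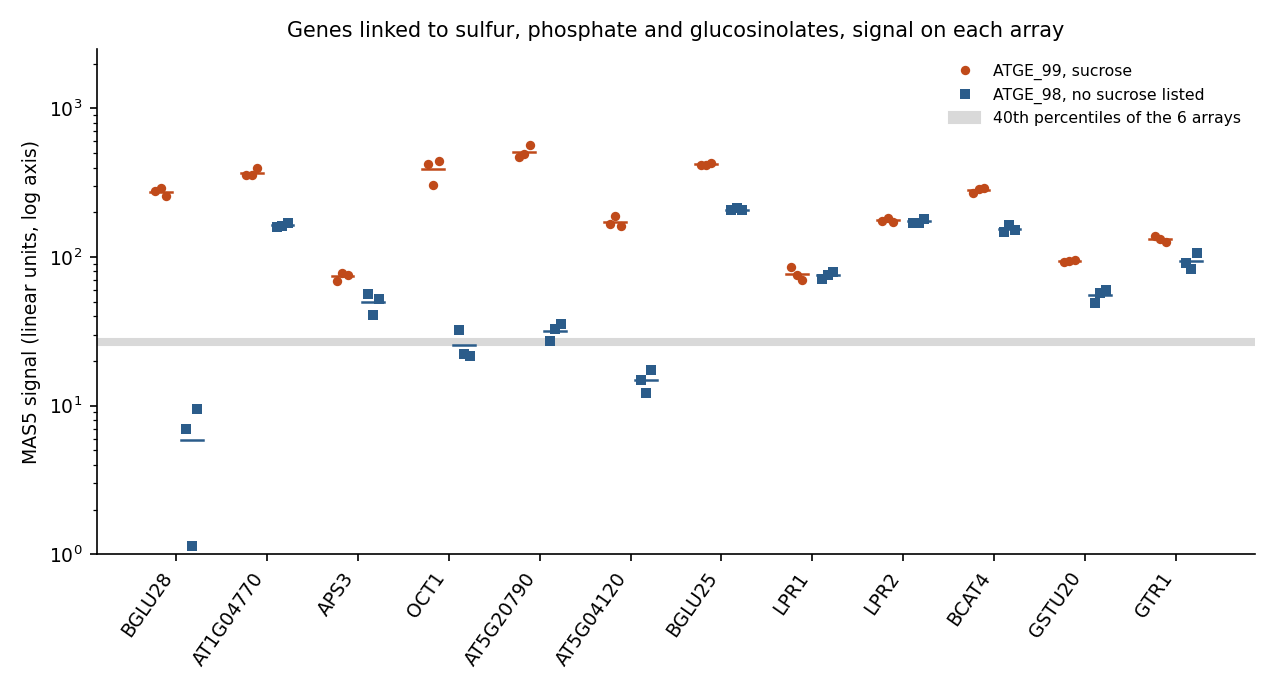
MAS5 signal (linear units, log axis) of 12 genes on each array, with ATGE_99 (circles, left) and ATGE_98 (squares, right) for each gene. Horizontal bars are means of 3 arrays and the grey band spans the 40th percentiles of the 6 arrays. BGLU28 lies at 258 to 290.3 in ATGE_99 and below the band in ATGE_98, while LPR1 and LPR2 overlap.

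The sugar transporter genes split in direction. Among 12 tested of 54 listed, 4 rose, 4 fell and 4 did not pass, and the median log2 difference was 0.05. SWEET11, SWEET13 and SWEET14 belong to the clade that carries sucrose, and all 3 rose. SWEET14 had signals of 46.6, 41.2 and 40.5 in ATGE_99 roots, against 9.32, 3.92 and 2.8 in ATGE_98 roots, dim on all arrays without sucrose and at least 1.64-fold higher with it (adjusted p = 5.9e-07). SWEET13 had 67.2, 61 and 61 in ATGE_99 roots, against 33.2, 24.4 and 33.2 in ATGE_98 roots. SWEET11 had 59.2, 59.8 and 51.9 in ATGE_99 roots, against 35.3, 32.2 and 29 in ATGE_98 roots. Neither overlapped between the groups, and, with 1 ATGE_98 array of SWEET13 dim, they rose 2.1-fold (adjusted p = 7.5e-07) and 1.77-fold (adjusted p = 1.1e-05). AT3G05400 had 248, 253 and 270.5 in ATGE_99 roots, against 85.5, 61.3 and 82.1 in ATGE_98 roots, a 3.4-fold rise with a wide standard error, 1.77 ± 0.44 on the log2 scale (adjusted p = 0.0048).

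The transporters of the vacuole membrane were among those that fell or did not pass. SWEET16 and SWEET17 are vacuolar hexose facilitators, SWEET2 limits sugar loss from roots by storing it in vacuoles, and TMT1 pumps sugars into the vacuole. SWEET16 had signals of 240.2, 250.2 and 249 in ATGE_99 roots, against 425, 403 and 427 in ATGE_98 roots. SWEET2 had 171, 165 and 159 in ATGE_99 roots, against 285, 266 and 282 in ATGE_98 roots. TMT1 had 522, 487 and 519 in ATGE_99 roots, against 731, 706 and 742 in ATGE_98 roots. In all 3 the highest array with sucrose was below the lowest without. They fell 1.7-fold, 1.68-fold and 1.43-fold (adjusted p = 8.5e-08, adjusted p = 0.00013 and adjusted p = 0.0044). SWEET17 fell by only 0.21 on the log2 scale (adjusted p = 0.019), and that call was lost when replicate 1 or 3 of ATGE_99, or replicate 1 or 3 of ATGE_98, was left out. TMT2, the paralog of TMT1, lay at 0.05 ± 0.08 (adjusted p = 0.72), SWEET1 at 0.34 ± 0.17 (adjusted p = 0.15), and the sugar transporter-like genes SFP1 and SFP2 at 0.05 ± 0.08 (adjusted p = 0.71) and -0.08 ± 0.20 (adjusted p = 0.83).

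**Figure D2:**
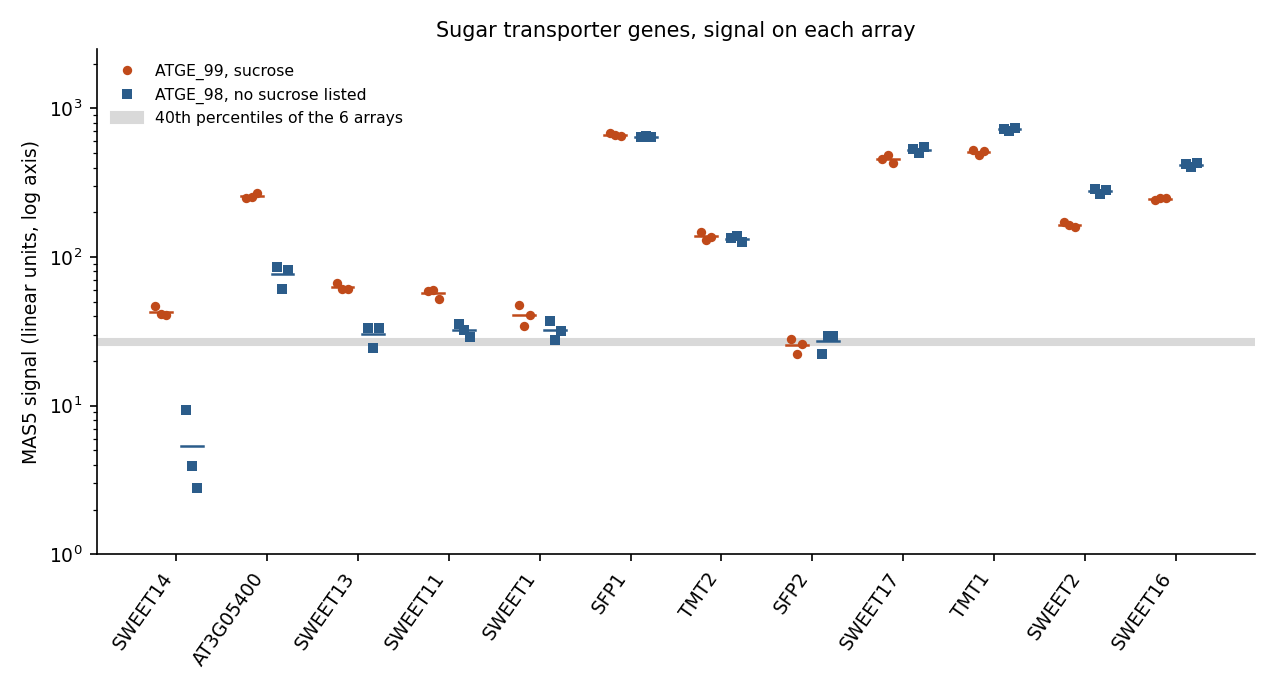
MAS5 signal (linear units, log axis) of the 12 tested sugar transporter genes on each array, ATGE_99 (circles, left) and ATGE_98 (squares, right), with means as bars and the 40th percentiles of the 6 arrays as a grey band. The genes run from the largest rise at the left, SWEET14, to the largest fall at the right, SWEET16, with overlapping arrays in the middle.

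Genes of sugar use moved both ways. Of 12 tested glycolysis genes, 6 rose and 1 fell, with a median of 0.19, and AT5G04120, already given above, was on that list too. AT5G63680 had signals of 401, 384 and 397 in ATGE_99 roots, against 233, 219 and 183 in ATGE_98 roots, a 1.87-fold rise (adjusted p = 4.9e-09). TPI, the cytosolic triose phosphate isomerase, had 1968, 1928 and 1919 in ATGE_99 roots, against 1509, 1650.1 and 1664 in ATGE_98 roots, a rise of 0.27 ± 0.07 on the log2 scale (adjusted p = 0.0083) that was lost without the first ATGE_98 replicate (0.23, adjusted p = 0.0524) and with median centring (0.23, adjusted p = 0.0504). AT1G56190 and AT1G12000 rose by 0.37 ± 0.07 and 0.31 ± 0.05 (adjusted p = 0.00056 and adjusted p = 0.00012), whereas AT1G76550 fell by 0.24 (adjusted p = 0.0038). In a list of the tricarboxylic acid cycle that was added after the values were seen, 6 of 10 tested genes rose and none fell, with a median of 0.24. Its isocitrate dehydrogenase subunit genes IDH-V and IDH-VI rose by 0.26 ± 0.06 and 0.28 ± 0.07 (adjusted p = 0.0025 and adjusted p = 0.0041). Among sucrose-cleaving and sucrose-making enzymes, AT2G35840 rose by 0.63 ± 0.15 (adjusted p = 0.0037), and cwINV6, a cell wall invertase-like fructan hydrolase, by 0.30 ± 0.11 (adjusted p = 0.047). The call of cwINV6 was lost without any 1 array other than the second ATGE_99 replicate, and with median centring, no filter or no intensity trend. PPDK, which turns pyruvate back to phosphoenolpyruvate, went the other way, with signals of 32.1, 28.4 and 32.4 in ATGE_99 roots, against 65.4, 64.1 and 63.1 in ATGE_98 roots and a 2.08-fold fall (adjusted p = 0.0037). The only tested gene of a list of sugar-induced genes, AT3G59480, fell by 0.71 (adjusted p = 0.0028).

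Genes that SnRK1 and carbon starvation are known to switch on were mostly lower with sucrose. Of 15 tested among 42 listed, 11 fell, 1 rose and 3 did not pass, and the median log2 difference was -0.40. AT3G15450, the brightest of them, had signals of 1308, 1278 and 1274 in ATGE_99 roots, against 2345, 2712 and 2534 in ATGE_98 roots. AKINBETA1, a regulatory subunit of SnRK1 itself, had 230.0, 225 and 237 in ATGE_99 roots, against 394, 430.1 and 373 in ATGE_98 roots. GAT1_2.1, a glutamine amidotransferase, had 165, 162 and 164 in ATGE_99 roots, against 278, 286 and 274 in ATGE_98 roots. The groups lay clearly apart in each, and the genes fell 1.96-fold (adjusted p = 1e-11), 1.73-fold (adjusted p = 2.9e-08) and 1.7-fold (adjusted p = 3.2e-07). BZIP53, a transcription factor of the low-energy response, fell by 0.24 (adjusted p = 0.016) with 1 overlapping array, and the call was lost without the first ATGE_99 replicate, without the first or second ATGE_98 replicate, and with only the compared arrays fitted. AT2G25690 was the member that rose, by 0.95 ± 0.15 (adjusted p = 4.9e-05). It is also on a list of FLZ proteins, a family known to bind SnRK1. Of 11 tested FLZ genes, listed after the values were seen, 5 rose and 2 fell, with a median of 0.44.

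IVD, MCCA and MCCB, genes of mitochondrial leucine breakdown, were lower together. IVD, isovaleryl-CoA dehydrogenase, had signals of 143, 137 and 140.5 in ATGE_99 roots, against 264, 276 and 272 in ATGE_98 roots. MCCA and MCCB are the subunits of methylcrotonyl-CoA carboxylase, the step that follows. MCCA had 126, 132 and 122 in ATGE_99 roots, against 306, 311 and 302 in ATGE_98 roots, and MCCB had 203, 222 and 191 in ATGE_99 roots, against 353, 369 and 356 in ATGE_98 roots. No array of 1 group reached the other in these 3 genes. MCCA fell 2.42-fold (adjusted p = 2.4e-12), IVD 1.93-fold (adjusted p = 1.8e-10) and MCCB 1.75-fold (adjusted p = 6.4e-06). ALDH6B2, the methylmalonate semialdehyde dehydrogenase of valine breakdown, fell 1.47-fold (adjusted p = 2.7e-06), and MGL, methionine gamma-lyase, 1.32-fold (adjusted p = 0.00026). AT4G33150, annotated as the lysine-degrading enzyme LKR/SDH, fell by 0.31 (adjusted p = 0.0013). ETFQO passes the electrons from these dehydrogenases to the respiratory chain. It fell by 0.27 (adjusted p = 0.047), and the call was lost without any 1 array other than the second ATGE_99 replicate, with no filter and with only the compared arrays fitted, while its electron donor ETFBETA was at 0.13 ± 0.08 (adjusted p = 0.27). In the whole list of branched-chain and related amino acid breakdown, 7 of 17 tested genes fell, none rose and 10 did not pass. The median was -0.12 and the highest value 0.40. MCCA, IVD and MCCB are on the sugar starvation list too, so these lists are not separate. ASPGB1, an asparaginase, was among the 15 largest falls by the naming rule, which takes probe sets with 1 gene, separate arrays and a brighter group that is not dim, with signals of 73.3, 44.4 and 45.8 in ATGE_99 roots, against 181, 163 and 178 in ATGE_98 roots and a 3.28-fold fall (adjusted p = 1.9e-09).

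**Figure D3:**
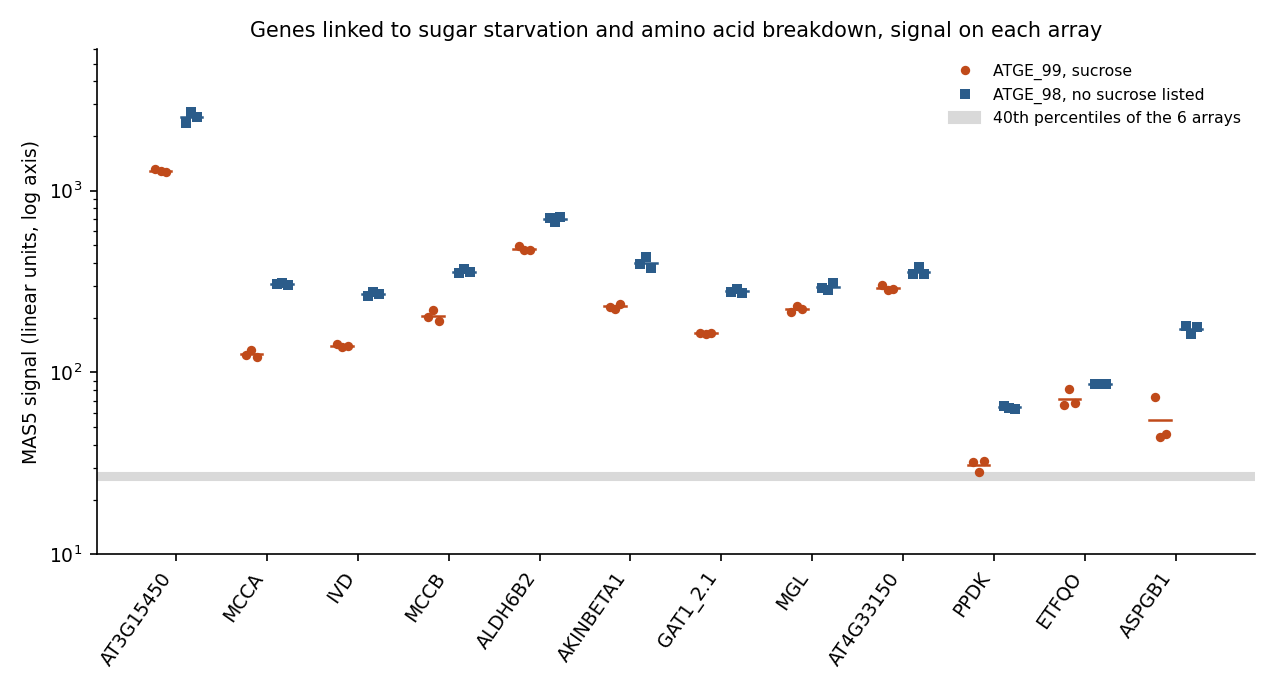
MAS5 signal (linear units, log axis) of 12 genes of the starvation response and of amino acid breakdown on each array, ATGE_99 (circles, left) and ATGE_98 (squares, right), with means as bars and the 40th percentiles of the 6 arrays as a grey band. In every gene shown the ATGE_99 arrays lie below the ATGE_98 arrays, because only genes that fell without overlap were drawn. AT2G25690, which rose, BZIP53, whose arrays overlap, and ETFBETA, which did not pass, are not shown.

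Root hair genes were higher with sucrose, all 7 of the 7 tested among 38 listed, with a median log2 difference of 1.2 (1.14 with the dim gene at its bound). EXPA18 and EXPA7 are expansins that loosen the wall of growing root hairs. EXPA18 had signals of 253, 264 and 246 in ATGE_99 roots, against 105, 109 and 118 in ATGE_98 roots, and EXPA7 had 160.0, 158 and 139.8 in ATGE_99 roots, against 94.2, 75.1 and 94.3 in ATGE_98 roots. The 3 arrays of each group stood apart, with rises of 2.3-fold (adjusted p = 2.3e-11) and 1.74-fold (adjusted p = 0.0027). AT1G34510 had 132, 129 and 125 in ATGE_99 roots, against 25.1, 26.4 and 22.4 in ATGE_98 roots, a 5.22-fold rise (adjusted p = 2e-05), or 4.88-fold with its 2 dim ATGE_98 arrays set at the dim limit. AT3G49960 had 336, 379 and 325 in ATGE_99 roots, against 81.7, 82 and 88.4 in ATGE_98 roots, a 4.12-fold rise (adjusted p = 9.6e-08). XTH26, a xyloglucan-modifying enzyme of root hairs, was dim on all ATGE_98 arrays at 1.25, 2.1 and 6.77 and reached 30.5, 28.6 and 22.7 in ATGE_99, where 1 array was still below the dim limit, at least 1.04-fold higher (adjusted p = 0.0002). AT1G30870 rose 2.21-fold (adjusted p = 2.3e-08). SCN1, a regulator that confines hair outgrowth to 1 site on the cell, rose by 0.25 ± 0.06 (adjusted p = 0.0025).

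Wall genes beyond the root hair list moved both ways. Of 16 tested expansin and xyloglucan enzyme genes, 8 rose and 3 fell, with a median of 0.26. EXPA8 had signals of 57.9, 65.1 and 45.8 in ATGE_99 roots, against 28.4, 18.3 and 14.6 in ATGE_98 roots, a 2.83-fold rise (adjusted p = 4.5e-06). Only 1 of the 3 ATGE_98 arrays was above the dim limit, and with the dim arrays set at that limit the fold is 2.1. XTH19 had 250.0, 184 and 226 in ATGE_99 roots, against 128, 109 and 115 in ATGE_98 roots, a 1.86-fold rise (adjusted p = 7.3e-06). EXPB1, EXPA9 and EXPA15 rose by 0.67 ± 0.13, 0.57 ± 0.13 and 0.33 ± 0.06 (adjusted p = 0.00056, adjusted p = 0.0021 and adjusted p = 0.00043). XTH16 and XTH33, both dim on every array with sucrose, were at least 1.41-fold and 1.07-fold lower (adjusted p = 4.3e-05 and adjusted p = 0.0043). Extensins, structural proteins that lock the wall, were listed after the values were seen. Of their 6 tested genes 5 rose, with a median of 1.11. HRGP1, an extensin, had 924, 939 and 887 in ATGE_99 roots, against 428, 480.2 and 420.4 in ATGE_98 roots, a 2.07-fold rise (adjusted p = 4e-08). Extensin genes share long repeats, so cross-hybridisation between them is possible and was not tested.

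Class III peroxidases, secreted enzymes that cross-link or loosen the wall, were likewise listed after the values were seen. Of 44 tested genes, 18 rose and 6 fell, with a median of 0.30. The largest fitted rise among them was that of AT1G34510, already counted with the root hair genes, so these lists are not separate. AT1G49570 had signals of 157, 164 and 139 in ATGE_99 roots, against 40.1, 48.3 and 39.5 in ATGE_98 roots, a 3.61-fold rise (adjusted p = 5.6e-10). PRX52 was dim without sucrose, with 77.1, 77.4 and 80.9 in ATGE_99 roots, against 25, 23.2 and 22.1 in ATGE_98 roots, and at least 3.02-fold higher (adjusted p = 4.7e-06). AT5G64120, annotated as PRX71, was the largest fall of the family, with 963, 911 and 909 in ATGE_99 roots, against 1628, 1772 and 1668 in ATGE_98 roots (1.82-fold, adjusted p = 5.2e-07). Tau glutathione transferases, stress-induced detoxifying enzymes, rose in 5 of 9 tested genes, and none fell, in a list that was also added later. GSTU25 had 616, 634 and 584 in ATGE_99 roots, against 332, 334 and 331 in ATGE_98 roots and rose 1.84-fold (adjusted p = 3.3e-06), and GSTU28 rose 1.59-fold (adjusted p = 4.4e-06).

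Genes of the low-oxygen response were lower with sucrose in 4 of 6 tested cases. Plants switch these genes on when oxygen falls, and fermentation then regenerates NAD. AT4G27450 had signals of 246, 261 and 222 in ATGE_99 roots, against 422, 448 and 482 in ATGE_98 roots. AT1G33055 had 77.3, 92.1 and 82.7 in ATGE_99 roots, against 182, 179 and 167 in ATGE_98 roots. AT1G19530 had 97.5, 100.2 and 104 in ATGE_99 roots, against 163, 181 and 167 in ATGE_98 roots. All 3 were lower on each ATGE_99 array than on any ATGE_98 array, by 1.86-fold, 2.1-fold and 1.69-fold (adjusted p = 4.7e-08, adjusted p = 0.00011 and adjusted p = 0.0005). PDC2, a pyruvate decarboxylase of ethanol fermentation, fell by 0.31 (adjusted p = 0.0042). AT4G17260 rose by 0.43 ± 0.09 (adjusted p = 0.00086). The median of the list was -0.53. A larger list of low-oxygen genes, added after the values were seen, held 20 tested genes of which 9 fell and 6 rose, with a median of -0.22. AT4G39675, of that list, was among the 15 largest falls by the naming rule, with 125, 143 and 167 in ATGE_99 roots, against 413, 474 and 381 in ATGE_98 roots (2.92-fold, adjusted p = 3.2e-08).

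Iron-deficiency genes were represented by only 5 tested members, of which 2 fell. AT3G12900 was dim with sucrose, with 10.9, 8.43 and 3.17 in ATGE_99 roots, against 37.2, 33.8 and 39.6 in ATGE_98 roots, and at least 1.33-fold lower (adjusted p = 1.1e-06). BHLH101, a transcription factor induced by iron deficiency, was dim in both groups, with 1.74, 3 and 2.34 in ATGE_99 roots, against 21.1, 12.3 and 18.2 in ATGE_98 roots. It passed the test (adjusted p = 0.00055), but no fold is given. The iron regulator PYE was at -0.07 ± 0.11 (adjusted p = 0.67), and AT3G13610, annotated as F6'H1, which makes the coumarins that mobilise iron, at 0.10 ± 0.06 (adjusted p = 0.23). In a longer iron list made after the values were seen, 7 of 11 tested genes fell and none rose. A copper list made in the same way held 13 genes, of which 2 were tested. CCS, which loads copper into superoxide dismutase, fell 2.18-fold, with 46.2, 49.4 and 45 in ATGE_99 roots, against 91.8, 104 and 111 in ATGE_98 roots (adjusted p = 1.1e-05). The other, AT1G71200, rose 2.28-fold, with 60.2, 51.1 and 65.6 in ATGE_99 roots, against 21.2, 25.6 and 31.5 in ATGE_98 roots (adjusted p = 0.00068), 2 of the 3 ATGE_98 arrays being above the dim limit.

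On the defence list, 7 of 9 tested genes were lower and none was higher, with a median of -0.44. PUB23, a ubiquitin ligase that dampens immune signalling, had signals of 165, 180.4 and 169 in ATGE_99 roots, against 347, 317 and 322 in ATGE_98 roots. WRKY53 and WRKY22, transcription factors of immunity and senescence, are also on the list. WRKY53 had 37.6, 24.4 and 27.9 in ATGE_99 roots, against 73.4, 81.7 and 82.6 in ATGE_98 roots, and WRKY22 had 35.5, 31.3 and 34.5 in ATGE_99 roots, against 63.3, 67.2 and 65.7 in ATGE_98 roots. The groups did not overlap in any of the 3, and the falls were 1.91-fold, 2.68-fold and 1.94-fold (adjusted p = 1.3e-09, adjusted p = 1.5e-06 and adjusted p = 4.6e-06). Of the ATGE_99 arrays, 1 was above the dim limit for WRKY53, and the fold is 2.59 with the others at that limit. PDF1.4, a defensin-like gene, was dim with sucrose at 9.67, 8.81 and 9.04 and above the dim range without it at 41.9, 38.9 and 34.5, at least 1.38-fold lower (adjusted p = 0.00053). PDF1.4 was dim in all groups but ATGE_98, and entered the test only through those arrays. The defensin genes PDF2.1 and LCR68 fell by 0.44 and 0.33 (adjusted p = 0.0031 and adjusted p = 0.0023). BIK1, a kinase just below immune receptors, fell by 0.39 (adjusted p = 0.0071), a call lost without the first ATGE_98 replicate. Other families did not fall. In a list of PR-1-like genes added after the values were seen, 5 of 11 tested genes rose and none fell, with a median of 0.22. The largest fitted rise among them was that of AT4G33720, which was dim without sucrose. In a list of chitinases added in the same way, 4 of 10 tested genes rose and none fell. ChiC, a class V chitinase, had 684, 678 and 715 in ATGE_99 roots, against 279.9, 269 and 306 in ATGE_98 roots (2.44-fold, adjusted p = 5.1e-10), and CHI (AT2G43570) had 224, 205 and 198 in ATGE_99 roots, against 95.1, 106 and 87.3 in ATGE_98 roots (2.18-fold, adjusted p = 6.3e-08). GRX480, a glutaredoxin of salicylic acid signalling, fell 1.53-fold (adjusted p = 0.00015). It belongs to the CC-type family, listed after the values were seen, in which 2 of 7 tested genes rose and 4 fell.

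Auxin-responsive genes moved in both directions, with 1 rise and 2 falls in 6 tested, and their median was 0.06, or -0.06 with dim genes at their bound. GH3.3 and WES1 conjugate auxin to amino acids. GH3.3 was dim with sucrose, with 6.98, 11.8 and 6.15 in ATGE_99 roots, against 36.2, 30.3 and 33.3 in ATGE_98 roots, and at least 1.2-fold lower (adjusted p = 0.00016), and WES1 fell by 0.32 (adjusted p = 0.0016). LBD16, a transcription factor of lateral root initiation, rose by 0.41 ± 0.15 (adjusted p = 0.042), and that call was lost without any 1 of the 6 arrays, and with median centring, no filter or no intensity trend. The clock gene GI, the only tested one of its list, had 218, 185 and 191 in ATGE_99 roots, against 134, 151 and 126 in ATGE_98 roots and rose 1.45-fold (adjusted p = 0.00018).

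Several of the largest changes were in loci for which the annotation used here gives no symbol. Of the 15 largest rises by the naming rule, AT5G17340 was dim without sucrose, with 94.6, 94.6 and 82.5 in ATGE_99 roots, against 7.4, 7.7 and 15.2 in ATGE_98 roots, and at least 3.48-fold higher (adjusted p = 1e-08). AT2G04460 was at least 4.31-fold higher with 119.9, 115 and 102 in ATGE_99 roots, against 20.7, 13.8 and 13.5 in ATGE_98 roots, and AT4G31330 rose 4.09-fold with 169, 217 and 192 in ATGE_99 roots, against 43.3, 49.8 and 47.7 in ATGE_98 roots. These 3 loci were well above the dim range on every array with sucrose. AT1G75290, AT4G33720, AT2G22930 and AT3G57160 were dim on all ATGE_98 arrays and lay at 28.5 to 59.5 in ATGE_99, which gives bounds of 1.87-fold, 1.14-fold, 1.28-fold and 1.38-fold. Without their ATGE_99 arrays, AT1G75290 and AT5G17340 would have missed the signal filter. A second, brighter probe set of AT3G57160 did not pass, with a log2 difference of -0.32, so its probe sets disagree.

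Among the 15 largest falls by that rule, AT1G73120 stood out by its tight arrays, with 5.4, 5.34 and 6.14 in ATGE_99 roots, against 63.4, 64.5 and 66.2 in ATGE_98 roots. It was dim on every array with sucrose and at least 2.34-fold lower (adjusted p = 5.7e-14). AT5G48430 fell 4.76-fold, with 49.7, 43 and 41.5 in ATGE_99 roots, against 212, 198 and 227 in ATGE_98 roots (adjusted p = 4.1e-14). AT3G56360, a bright gene, fell 2.87-fold, with 257, 267 and 268 in ATGE_99 roots, against 758, 729 and 783 in ATGE_98 roots (adjusted p = 6.7e-14). In each the arrays of the groups were well separated. AT2G15960, AT5G56100, AT4G00780, AT3G45730 and AT2G25735 fell 3.77-fold, 3.4-fold, 3.31-fold, 2.92-fold and 2.87-fold. In ATGE_99, 1 array of AT4G00780 and 2 of AT2G25735 were above the dim limit. AT3G01175 and AT3G46880, dim with sucrose, were at least 2.67-fold and 2.39-fold lower.

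The other lists chosen with the design held few called genes. Of 16 tested autophagy and senescence genes 1 rose and 1 fell, with a median of -0.01. None of 4 cell cycle genes, 3 starch genes, 5 lignin and phenylpropanoid genes or 3 dehydration genes passed, and 1 of 7 heat shock genes rose. In short lists added after the values were seen the share was higher. Of 4 tested germin-like genes 3 rose and 1 fell. Of 3 tested genes of the NIGT1 and HHO family 2 rose, and of 3 tested photorespiration genes 1 fell. With so few members, these lists say little about their pathways, and a gene that misses the threshold is not shown to be equal. Aquaporins and trehalose phosphate genes had no named probe set.

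**Figure D4:**
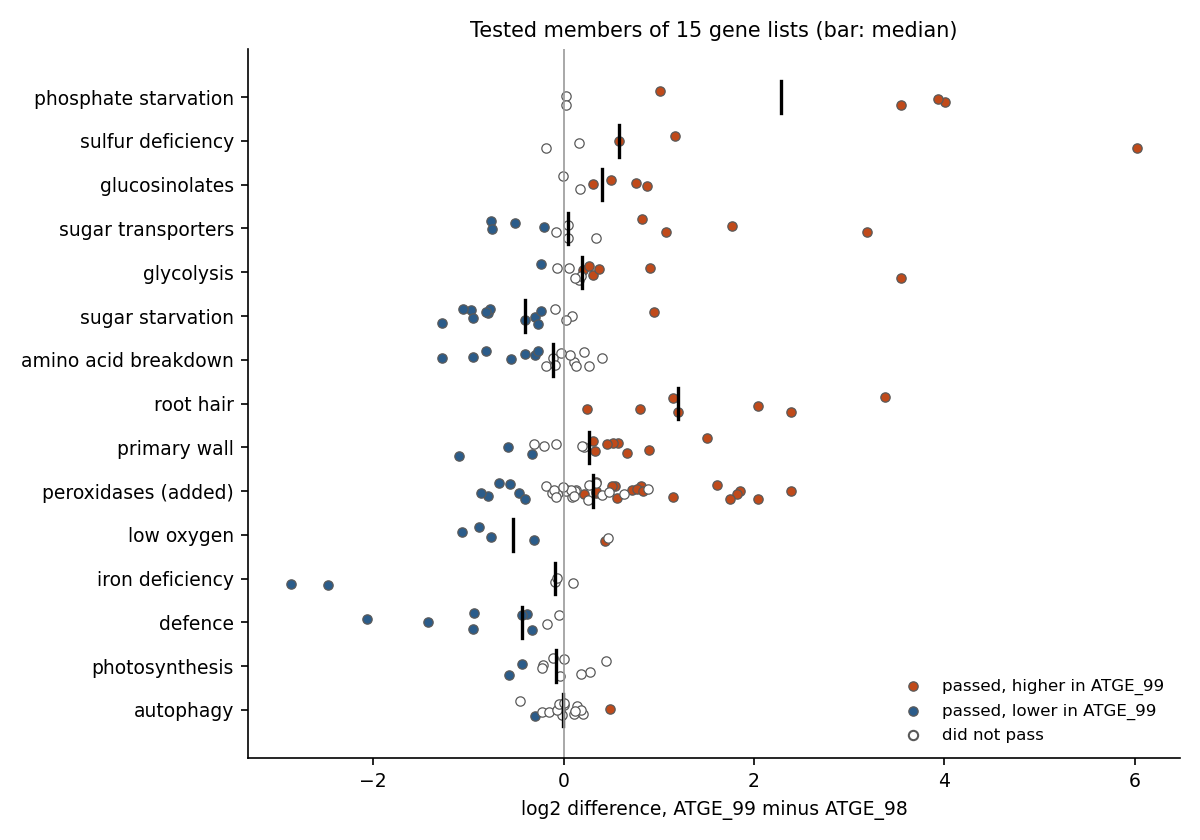
Log2 differences, ATGE_99 minus ATGE_98, of the tested members of 15 gene lists. Each point is 1 gene, filled where the test passed (orange higher, blue lower), and the black bar is the list's median. All 7 root hair genes lie to the right of 0 and 11 of the 15 sugar starvation genes are filled on the left. Points of dim genes, such as BGLU28 at 6.03, are fitted values and no bounds.

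Whether sucrose had another effect at the earlier harvest was tested as the later difference (ATGE_99 minus ATGE_98) minus the earlier one (ATGE_95 minus ATGE_94). The groups share no arrays. The earlier pair differed in 5251 probe sets, 34.4% of those tested (15.2% higher and 19.2% lower). The difference between the effects passed in 1911 (12.5%), 1080 of them more positive at the later harvest and 831 more negative, which is 7.07% and 5.44%. That split depends on the scaling: centring each array on its median gave 653 and 1412, and for the earlier contrast 3036 higher and 2143 lower in place of 2321 and 2930. Leaving out the first ATGE_94 replicate lowered the 1911 to 1237. Age and every other condition that differed between the harvests cannot be told apart. The signs of RNA quality and green tissue moved differently in the earlier pair. Its actin 3'/5' ratios were 3.17, 1.91 and 3.345 in ATGE_95, against 1.42, 1.85 and 2.27 in ATGE_94, with overlap and the higher mean in ATGE_95. Its photosynthesis sums were 713.8 to 865 in ATGE_95 and 1092 to 1223 in ATGE_94, with 6 of the 10 genes passing. Their part in the difference between the harvests was not tested.

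The fitted rise of the phosphate-linked loci AT5G20790 and AT5G04120 was larger at the later harvest, by 1.35 ± 0.39 and 1.22 ± 0.16 on the log2 scale (adjusted p = 0.026 and adjusted p = 2.1e-05). AT5G20790 had signals of 125, 133 and 113 in ATGE_95 roots, against 20.1, 17 and 21.9 in ATGE_94 roots, so that it rose there as well, from a dim group. The call of its difference was lost without ATGE_99 replicate 3, ATGE_98 replicate 1, ATGE_95 replicate 3 or ATGE_94 replicate 1 (1.25 to 1.33). OCT1, dim in ATGE_94, missed the threshold of this test, with fitted values of 3.94 ± 0.36 later and 4.33 ± 0.36 earlier (adjusted p = 0.67). AT1G04770 rose more at the later harvest, by 0.71 ± 0.11 (adjusted p = 0.00011). BGLU28 was dim in ATGE_95, at 6.57, 2.47 and 1.64, and in ATGE_94, at 4.03, 4.71 and 5.64, so ATGE_99 was the only bright group of the 4. Its fitted difference was 5.75 without the second and 7.28 without the third ATGE_98 replicate. SWEET14, dim in both earlier groups, differed by 1.68 ± 0.52 (adjusted p = 0.037), a call lost without any 1 of the 12 arrays other than the first ATGE_98 and the first and second ATGE_94 replicates (1.31 to 1.75).

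Several starvation genes fell less at the later harvest. MGL had 58.1, 61.7 and 65 in ATGE_95 roots, against 275, 267 and 277 in ATGE_94 roots, and the later fall was smaller by 1.75 ± 0.10 on the log2 scale (adjusted p = 3.2e-10). GAT1_2.1 likewise had 189, 143 and 153 in ATGE_95 roots and 720.0, 699 and 779.7 in ATGE_94 roots, a difference of 1.42 ± 0.12 (adjusted p = 7.8e-08). AKINBETA1 and AT3G15450 missed the threshold, at 0.14 ± 0.11 and -0.01 ± 0.08 (adjusted p = 0.42 and adjusted p = 0.96). Of the 15 tested starvation genes, 6 passed this test, among them MCCA, IVD and MCCB, and 14 passed the earlier contrast itself. The call of MCCB was lost without any 1 array other than the third ATGE_99, first ATGE_95 and first ATGE_94 replicates (0.35 to 0.50).

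The tonoplast transporter TMT1 passed at the later harvest but not at the earlier, where its difference was 0.11 ± 0.13 (adjusted p = 0.54), and the effects differed by -0.62 ± 0.18 (adjusted p = 0.026). That call was lost without ATGE_99 replicate 2, ATGE_95 replicate 3, or ATGE_94 replicate 1 or 2 (-0.59 to -0.50). The effects on SWEET16 differed by -0.46 ± 0.11, a larger fall at the later harvest (adjusted p = 0.0083). CHI turned direction, with 42.9, 47.4 and 51 in ATGE_95 roots, against 54.6, 62 and 68.5 in ATGE_94 roots, and a difference of 1.51 ± 0.16 (adjusted p = 1.2e-06). XTH33 and PDF2.1 also had effects of opposite sign, -0.58 later and 0.90 earlier for XTH33 and -0.44 later and 0.58 earlier for PDF2.1 (adjusted p = 3.9e-05 and adjusted p = 6.8e-05 for the differences). By the naming rule, the other large differences toward the later harvest were in AT1G60200 (2.87, dim in ATGE_99 and ATGE_98), AT1G19530 (2.33), the glyoxylate cycle gene ICL (2.08), AT3G57160 (2.05) and AT1G66760 (1.99). Those away from it were in AT4G21870 (-2.50), AT1G59850 (-2.36), the plastid ribosomal protein gene rpl20 (-1.94), AT2G39980 (-1.90), PDF1.4 (-1.87) and AT1G62320 (-1.78). AT1G66760 had 296, 308 and 297 in ATGE_99 roots, against 154, 138 and 165 in ATGE_98 roots, and 42.9, 89.1 and 46.5 in ATGE_95 roots, against 149.7, 117 and 82.9 in ATGE_94 roots. Its log2 difference was 0.98 ± 0.19 later and -1.01 ± 0.19 earlier, and the earlier groups overlapped by their arrays. The earlier arrays overlapped for rpl20 too, at 211, 143 and 204 in ATGE_95 roots, against 42, 47.5 and 189 in ATGE_94 roots, and without the third ATGE_94 replicate its difference was -2.64. AT1G60200 lay at 3.61 without the second and 2.23 without the third ATGE_95 replicate, and AT1G62320 at -1.13 without the third ATGE_94 replicate. The calls of ICL, PDF1.4 and AT3G57160 were each lost without at least 1 array: for ICL any but ATGE_98 replicate 3 and ATGE_95 replicates 1 and 2 (1.57 to 2.24), for PDF1.4 any but ATGE_98 replicate 3, ATGE_95 replicate 1 and ATGE_94 replicate 3 (-1.91 to -1.66), and for AT3G57160 ATGE_98 replicate 2 or ATGE_94 replicate 1 (1.67 and 1.81).

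**Figure D5:**
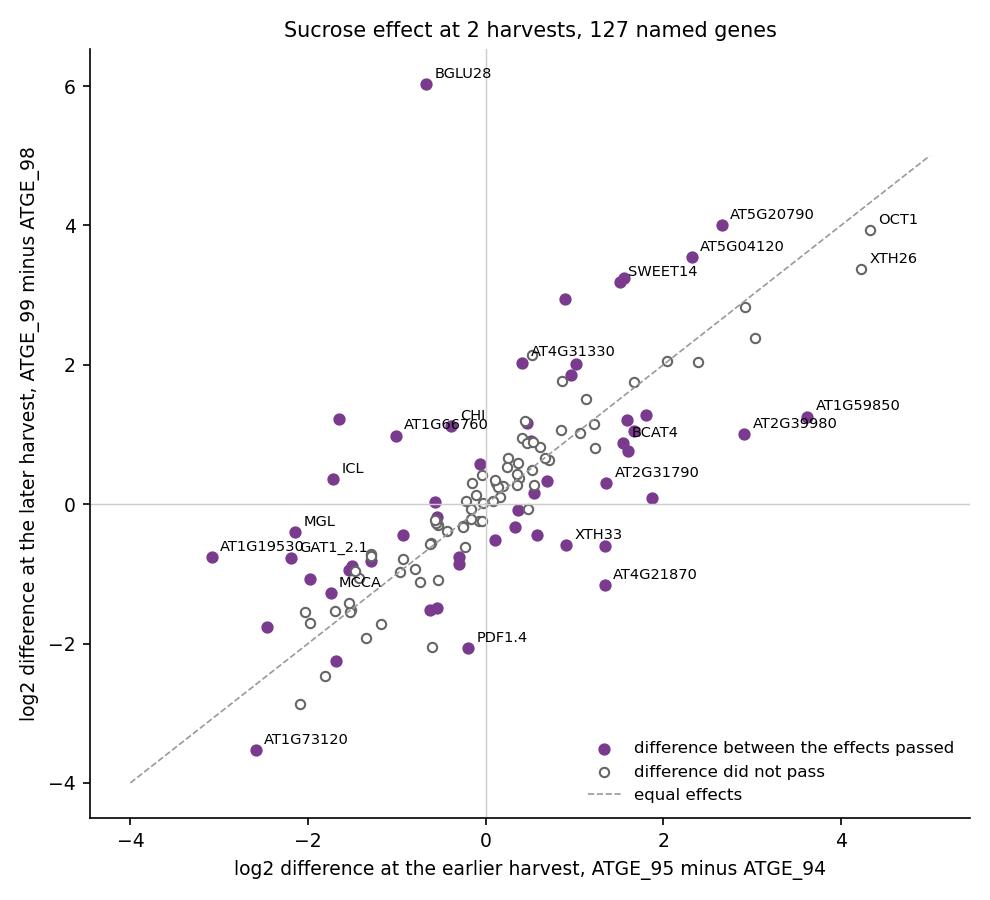
Log2 difference at the later harvest (ATGE_99 minus ATGE_98, y axis) against that at the earlier harvest (ATGE_95 minus ATGE_94, x axis) for the 127 named genes. Filled points passed the test of the difference between the effects, and the dashed line marks equal effects. BGLU28 lies highest, at 6.03 later and -0.67 earlier, both fitted values of a gene that is dim in 3 of the 4 groups.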

How the data were processed

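The values were the deposited MAS5 signals, linear intensities for each probe set; MAS5 is named in the submitters' processing notes, with no version or settings given in the sources used here. The deposited values of every array share 1 mean once 2% are trimmed at each end, as tested on the values. Of 22810 probe sets, 64 controls were left out, 13513 carry 1 gene in the platform annotation, 503 several and 8730 none, and genes are named only from the first kind. Probe sets above the 40th percentile of their array on at least 3 of 21 arrays were kept. The log2 intensities of the 7 groups were fitted with limma 3.58.1 in R 4.3.3 (lmFit, eBayes with intensity trend, 14 residual degrees of freedom), and p-values were adjusted by Benjamini-Hochberg over all tested probe sets. With 3 arrays in each group, their number limits the precision. Fitting was tested on simulated data. Tables were handled in Python 3.11.15 with pandas 2.3.3, and plots drawn with matplotlib 3.10.9.

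For a probe set dim on all 3 arrays of 1 group, the bound is the brighter group's mean log2 signal minus the dim group's mean of, for each array, the higher of its 40th percentile and the probe set's own signal. The percentile served in place of a detection call, which is not used here. A gene with several probe sets is given by the brightest, unless the naming rule picked another. The rule names the 15 largest rises and 15 largest falls with separate arrays and a brighter group that is not dim, up to 5 members of each list by adjusted p, any tested member of the starvation, nutrient, sugar transporter and amino acid breakdown lists, and the 6 largest differences between harvests each way. Not every gene it allows is given. The gene lists and the samples were chosen with earlier results of these data known, and 16 of the 49 lists were added after the values were seen. Alternatives were quantile normalization, median centring, other filters, a pseudocount of 16, no intensity trend, only the arrays compared, the replicate letter as a block, and leaving out each array.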

Additional observations from a re-analysis of the deposited data

Results flagged for a closer look

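The sucrose effect differed between the later and the earlier harvest for 53 of the 127 named genes. This was limma's test of the difference at an adjusted p of 0.05 over all tested probe sets, of which 12.5% passed. The naming rule took genes partly by this same difference and by the later effect, so the 2 shares cannot be compared. Without each of the 12 arrays in turn, 39 of the 53 passed throughout, while the call was lost at least once for APS4, AT1G33055, AT3G57160, AT5G20790, AT5G63680, EXPA9, ICL, LHCB4.1, LPR1, MCCB, PDF1.4, SIR, SWEET14 and TMT1. Values are log2 differences of the effects, later minus earlier. Among nutrient and glucosinolate genes they were 6.70 for BGLU28, 1.35 for AT5G20790, 1.22 for AT5G04120, 0.59 for LPR1, 0.71 for AT1G04770, 0.35 for APS4, -0.38 for SIR, -0.67 for BCAT4, -0.84 for GSTU20 and -1.05 for AT2G31790. For sugar transporters they were 1.68 for SWEET14, -0.46 for SWEET16 and -0.62 for TMT1. Starvation and carbon genes had 1.75 for MGL, 1.42 for GAT1_2.1, 0.59 for IVD, 0.47 for MCCA, 0.48 for MCCB, 2.08 for ICL and 0.40 for AT5G63680.

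Wall genes and peroxidases had -0.39 for EXPA18, -0.36 for EXPA15, 0.63 for EXPA9, -1.49 for XTH33, -0.62 for HRGP1, 0.89 for AT1G49570 and -0.56 for AT5G64120. In the low-oxygen list the values were 2.33 for AT1G19530, 0.91 for AT1G33055 and 0.62 for AT4G27450. Defence genes and chitinases had -1.87 for PDF1.4, -1.01 for PDF2.1, -0.66 for LCR68, 1.51 for CHI and -0.52 for ChiC. PYK10 had -0.45, LHCB4.1 0.50 and rpl20 -1.94.

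Loci with no symbol made up the rest. More positive later were AT1G60200 at 2.87, AT3G57160 at 2.05, AT1G66760 at 1.99, AT5G17340 at 1.69, AT4G31330 at 1.62, AT2G22930 at 0.99 and AT5G56100 at 0.70. More negative later were AT4G21870 at -2.50, AT1G59850 at -2.36, AT2G39980 at -1.90, AT1G62320 at -1.78, AT3G46880 at -0.94, AT1G73120 at -0.94, AT3G56360 at -0.90 and AT5G48430 at -0.56. AT1G60200 has a second probe set with a later effect of -0.28, opposite to its fitted 1.22, so its probe sets disagree. Where a gene was dim in some groups, these fitted values are no bounds.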

How the results depend on the processing

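Of the 127 named genes, 108 kept their direction and their side of the threshold at the later harvest under all 14 alternatives. Calls were lost under at least 1 for 10 genes and gained for 3. Those that turned direction had not passed: LPR1 and LPR2 were at -0.0101 and -0.0171 with median centring, PYK10 at 0.0052 and AT1G62320 at -0.0496 with quantile normalization. Leaving out an array gave -0.0529 to 0.0947 for LPR1, -0.0019 to 0.0514 for LPR2, -0.2097 to 0.0171 for SFP2, -0.0495 to 0.1793 for AT1G62320 and -0.1454 to 0.7004 for ICL. Without 1 array, 2953 to 3267 probe sets were called at the later harvest (1537 to 1698 higher, 1416 to 1573 lower), 4073 to 5377 at the earlier, and 1237 to 2603 for the difference (675 to 1472 higher, 562 to 1131 lower). The number of called genes of the 33 lists chosen with the design, 86, was 76 to 84 without 1 array. The lists added after the values were seen were not part of that count. Median centring gave 653 higher and 1412 lower for the difference, in place of 1080 and 831. The replicate letters did not pair the arrays, since deviations of same-letter arrays correlated at 0.04, -0.002 and 0.027. With the letter as a block 3726 probe sets were called at the later harvest, 5155 at the earlier and 1864 for the difference. Of the named genes, ETFQO alone lost its call there (adjusted p = 0.052). Signals near the 40th percentile limit what dim genes can show.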

Other observations

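Levels in the remaining root groups place the largest changes. These are ATGE_95 and ATGE_94, ATGE_93, grown on 1xMS plates with 1% sucrose, and the soil-grown ATGE_9 and ATGE_3. The labels give 20 °C for ATGE_95 and ATGE_94, 22 °C for ATGE_93 and 23 °C for the soil groups. They differ in several conditions at once, so values are given with no test, as mean signals with SD over 3 arrays. BGLU28 was bright only in ATGE_99, at 276 ± 16.3, and dim in all 6 other groups, with means of 3.56 to 6.07. PDF1.4 was the opposite case, above the dim range only in ATGE_98, at 38.4 ± 3.75, with means of 9.17 to 10.9 elsewhere. Each gene passed the filter only through its bright group, so its test rests on the group that let it in.

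OCT1 reached 388 ± 73.4 in ATGE_99, 25.5 ± 6.07 in ATGE_98, 40.4 ± 5.97 in ATGE_95 and 47.6 ± 5.44 in ATGE_93, and it was dim in ATGE_94 and in both soil groups. AT5G20790 had the same pattern of dim groups, with 511 ± 52.9 in ATGE_99, 124 ± 10.01 in ATGE_95 and 182 ± 19.6 in ATGE_93. AT5G04120 did not, since it was bright in soil, at 267 ± 2.52 in ATGE_9 and 110.0 ± 4.94 in ATGE_3, against 172 ± 14.1 in ATGE_99. AT3G05400 had 257 ± 11.8 in ATGE_99 and 76.3 ± 13.1 in ATGE_98, and was dim in ATGE_95, ATGE_94 and soil.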
